A study of Equus caballus with 3 samples.

Results

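The surface antigens described here are 10 proteins used, or proposed, to recognise mesenchymal stromal cells (MSCs), with the widely used marker THY1 left out. The genes were chosen by name: *CD44*, *ENG*, *NT5E*, *VCAM1*, *ALCAM*, *CD9*, *CD63*, *CD81*, *LEPR* and *NGFR*. Of these 10 names, 9 had a row among the 29927 gene rows of the matrices. No row carried the symbol *CD81*, which is not analysed here. In the cells kept, 7 of the 9 genes had at least 1 transcript in AT-derived MSCs and 8 of the 9 in BM-derived and in PB-derived MSCs.

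The cells were untreated cultured MSCs of 1 healthy Warmblood mare aged 10 years, grown from her fat (adipose tissue, AT), her marrow (bone marrow, BM) and her blood (peripheral blood, PB), taken after 2 passages. Each source gave 1 droplet-based single-cell RNA sequencing library, in which each captured transcript carries a barcode of its cell and a unique molecular identifier (UMI). Differences between sources are therefore also differences between libraries and belong to 1 animal, so no test was run, and every 95% interval (exact Poisson for sums, Clopper-Pearson for shares of cells) covers counting error only. The tissue source is taken from the sample titles, as the deposited source name is the same for all 3 samples.

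MSCs have no antigen of their own and are defined by sets of surface proteins. CD44 binds hyaluronan in the extracellular matrix, VCAM1 and ALCAM are adhesion molecules of the immunoglobulin superfamily, and CD9, CD63 and CD81 are tetraspanins, which organise other proteins in membranes and are abundant on extracellular vesicles. ENG (endoglin, CD105) is a co-receptor for TGF-beta and BMP ligands, LEPR is the leptin receptor that marks stromal cells of the bone marrow, NGFR (CD271) is the low-affinity neurotrophin receptor, and NT5E (CD73) is an enzyme that makes extracellular adenosine from AMP.

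Cells were retained from 2500 up to 15000 UMIs if no more than 3% lay on mitochondrial genes, which left 5403 AT-, 5580 BM- and 5318 PB-derived MSCs with 39980656, 40239295 and 41622445 UMIs. The median depth was 7291, 6874.5 and 7750 UMIs per cell. Of the 11 stromal markers checked, all were detected in each source, whereas the leukocyte gene *PTPRC* was at 0 and the haematopoietic list summed to 12.4, 20.97 and 14.3 CPM (UMI counts of the retained cells, scaled to the usual common total of counts per library). Endothelial markers summed to 1.38, 0.273 and 0.288 CPM, and *SOX10*, *FOXD3* and *CDH19* of the Schwann and neural crest list were at 0. The smooth muscle and pericyte list, led by *TAGLN* and *ACTA2*, summed to 2036, 2862 and 2307 CPM. The AT matrix also held every one of the 5318 barcodes kept for PB, mostly with few UMIs, and 76 AT, 77 BM and 72 PB cells shared a barcode with a cell kept in another source. The log2 difference of *CD44* between AT and BM was 1.27 with these cells and 1.27 without them, and that of *VCAM1* was -2.06 with them and -2.055 without.

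The question put to each antigen was whether its transcript level differed between the sources. Between AT- and BM-derived MSCs, *CD44* and *VCAM1* were at least 2-fold apart on the log2(CPM + 1) scale, in opposite directions. These are 2 of the 6 antigen genes whose mean over the sources reached 1 CPM. Of all 11479 genes with such a mean, 1265 were as far apart, 2.57% higher in AT and 8.45% higher in BM. Between AT and PB, *VCAM1* was at least 2-fold apart, beside 1194 of all genes (4.42% higher in AT and 5.98% higher in PB). Between BM and PB none of the antigens was, beside 949 of all genes (5.94% higher in BM and 2.33% higher in PB). The median log2 difference over the 9 genes with a row was -0.28 for AT minus BM, -0.18 for AT minus PB and -0.13 for BM minus PB. This median includes 3 genes with a mean under 1 CPM, of which *LEPR* was at 0 in every source. Over the 6 antigen genes with a mean of at least 1 CPM it was -0.38, -0.49 and -0.30, a description that carries no test. Over the 11479 genes with such a mean the medians were -0.24, -0.04 and 0.20. Counts of UMIs at the 3' end were used without regard to gene length, so that levels are compared between sources for each gene and not between genes.

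**Figure D1:**
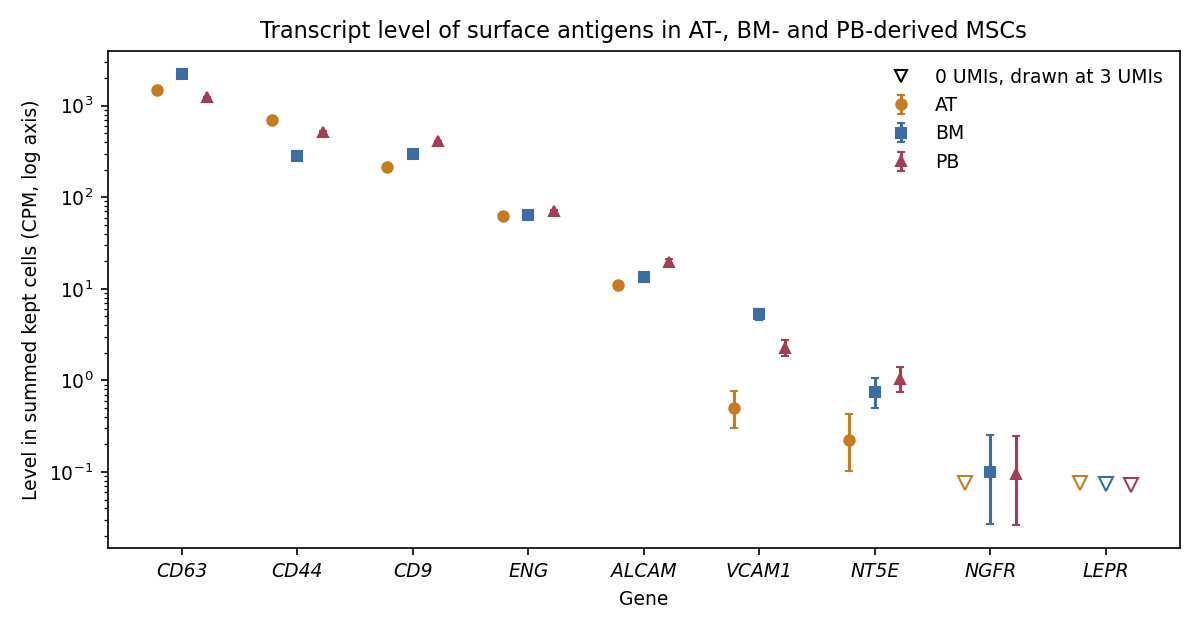
Level of 9 surface antigen genes by source (AT, BM, PB), in CPM of the summed kept cells on a log axis; bars are exact 95% Poisson intervals (counting error) and open triangles mark genes with 0 UMIs, drawn at the level of 3 UMIs. *CD44* was highest in AT and *CD63* and *VCAM1* in BM, whereas the 3 symbols of *ENG* lay between 62.2 and 70.4 CPM.

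*CD44* showed the largest difference among the strongly detected antigens. AT-derived MSCs had 691 CPM (95% interval 683 to 699). BM-derived MSCs had 285 CPM (280 to 291), and PB-derived MSCs had 522 CPM (515 to 529). AT was highest and BM lowest, without overlap of the counting intervals. The level in AT was 2.42 times that in BM (95% interval 2.37 to 2.47) and 1.32 times that in PB (1.30 to 1.35), and the level in PB was 1.83 times that in BM (1.79 to 1.87). The scaling moved these folds beyond their counting intervals. Under trimmed-mean (TMM) scaling the log2 difference was 1.55 instead of 1.27 for AT minus BM. For BM minus PB it was -1.10 instead of -0.87, and for AT minus PB 0.45 instead of 0.40. The range of *CD44* over the sources was larger than that of 87.8% of all genes with a mean of at least 1 CPM.

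The order of the sources was the same in single cells. To compare cells at 1 depth, the UMIs of each cell were drawn at random without replacement down to 2500. After this thinning, a *CD44* UMI was found in 78.6% of cells from AT, 49.8% from BM and 70.1% from PB, and at their own depth 96.2%, 80.6% and 94.5% had. The median cell held 4 *CD44* UMIs in AT and PB and 2 in BM. The 10th percentile of cells held 1, 0 and 1 UMIs in AT, BM and PB, and the 90th percentile 10, 4 and 8 UMIs. The libraries held no named cell type that should lack these antigens, so the share of cells in which free RNA alone gives a UMI was not tested.

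Among other genes of hyaluronan synthesis, binding and turnover, 12 of 19 with a row had a mean of at least 1 CPM. Of the 19, 1 was at least 2-fold higher in AT than in BM and 2 were higher in BM. Of the 11479 genes with a mean of at least 1 CPM, 2.57% and 8.45% were. Between AT and PB 2 were higher in AT and 4 in PB (beside 4.42% and 5.98% of those genes). Between BM and PB 3 were higher in BM and 0 in PB (beside 5.94% and 2.33%). *EZR*, which links CD44 and other membrane proteins to actin, was measured at 146, 192 and 242 CPM in AT, BM and PB, and its relative *RDX* at 141, 115 and 122 CPM. The hyaluronan-binding proteoglycan *VCAN* had 115 and 120 CPM in AT and BM and 31.2 CPM in PB. The widest range was that of *CEMIP2*, a cell surface protein of hyaluronan turnover, with 2.83, 28.7 and 7.33 CPM. The level of *CD44* was lowest in BM, in which *CEMIP2* was highest.

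*VCAM1*, which binds integrins of leukocytes, was rare and highest in BM-derived MSCs. It had 20 UMIs in 17 AT cells, 211 UMIs in 173 BM cells and 95 UMIs in 36 PB cells. The level was 0.5002 CPM in AT (95% interval 0.306 to 0.773). BM had 5.24 CPM (4.56 to 6.001) and PB had 2.28 CPM (1.85 to 2.79). The level in BM was 10.5 times that in AT (6.62 to 17.5) and 2.30 times that in PB (1.79 to 2.96). The level in PB was 4.56 times that in AT (2.80 to 7.80). On the log2(CPM + 1) scale, which understates the change of low genes, the differences were -2.06 for AT minus BM, -1.13 for AT minus PB and 0.93 for BM minus PB.

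The *VCAM1* UMIs of PB-derived MSCs were concentrated in few cells. The 10 cells with the most held 67.4% of them, and a single cell held 27. In BM the top 10 cells held 13.7%, and no cell held more than 4. Cells of each source were clustered on their own, which gave 7 clusters in AT, 8 in BM and 10 in PB. In PB, cluster 9 of 40 cells, led by the interferon-inducible genes *CXCL10*, *GBP5* and *GBP6* among genes with a symbol, held 47 of the 95 UMIs in 5 cells (164 CPM). Cluster 6 of 370 cells, led by *CCL7*, *CCL2* and *SOD2*, held another 33 UMIs in 18 cells (11.6 CPM). Together these 410 cells held 84.2% of the *VCAM1* UMIs of PB, and the other 4908 cells held 15 UMIs, or 0.390 CPM (0.218 to 0.643). That value lay within the counting interval of all AT-derived MSCs, from which no cluster was left out. The 2 PB clusters were left out after their *VCAM1* values were seen, so the 2 sides are not treated alike. In AT, *VCAM1* was highest in cluster 6 of 414 cells, with 2.07 CPM (0.892 to 4.07). Without cluster 9 the log2 difference between AT and PB was -0.53 instead of -1.13, so that no antigen was 2-fold apart, and that between BM and PB was 1.53 instead of 0.93.

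In BM the *VCAM1* UMIs were spread over more cells. Cluster 1 of 1141 cells, led by *TAGLN3*, *CCL2* and *CXCL12*, held 88 of 211 UMIs in 70 cells (11.7 CPM, 95% interval 9.34 to 14.4). Cluster 7 of 100 cells, led by *LAMP2*, *PCOLCE* and *PIGK*, had 22.4 CPM (13.7 to 34.5) from 20 UMIs. Cluster 3, led by *CALCA*, *EMB* and *IGFBP5* among genes with a symbol, had 0.649 CPM (0.177 to 1.66) from 653 cells.

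Cells with a *VCAM1* UMI were next compared with the remaining cells of their source. Among genes detected in at least 25% of the cells with a *VCAM1* UMI, those with the largest log2(CPM + 1) differences are given here; this comparison was chosen after the values by cluster were seen, and as the limit of 25% was set in these cells alone, it favours genes that are high there. In the 173 BM cells they were *TAGLN3* (209 CPM against 97.6 in the remaining cells), the chemokine *CXCL12* (53.0 against 24.5) and the protease *PLAU* (338 against 164). In the 36 PB cells they were led by *CXCL10* (1551 against 17.3 CPM), *C1H15orf48* (258 against 4.02) and *GBP1* (293 against 10.8). *ICAM1*, another adhesion molecule of leukocyte contact, had 99.8 CPM in these PB cells and 4.43 in the remaining cells. The contrast in the PB cells rested on few cells: *CXCL10* was detected in 9 of the 36 and *ICAM1* in 10.

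By cluster, *ICAM1* was highest in the same 2 PB clusters as *VCAM1*. *ICAM1* was chosen after the values by cluster were seen. Of the 36 PB cells with a *VCAM1* UMI, in which it was high, 23 lay in these 2 clusters. The shared clusters are therefore not a separate result. *ICAM1* had 52.4 CPM (29.3 to 86.4) in PB cluster 9 and 33.7 CPM (27.3 to 41.1) in PB cluster 6, and from 1.53 to 6.75 CPM in the other 8. In BM its clusters lay between 2.92 and 6.71 CPM. In the sums over each source *ICAM1* had 4.202, 4.22 and 5.14 CPM in AT, BM and PB.

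**Figure D2:**
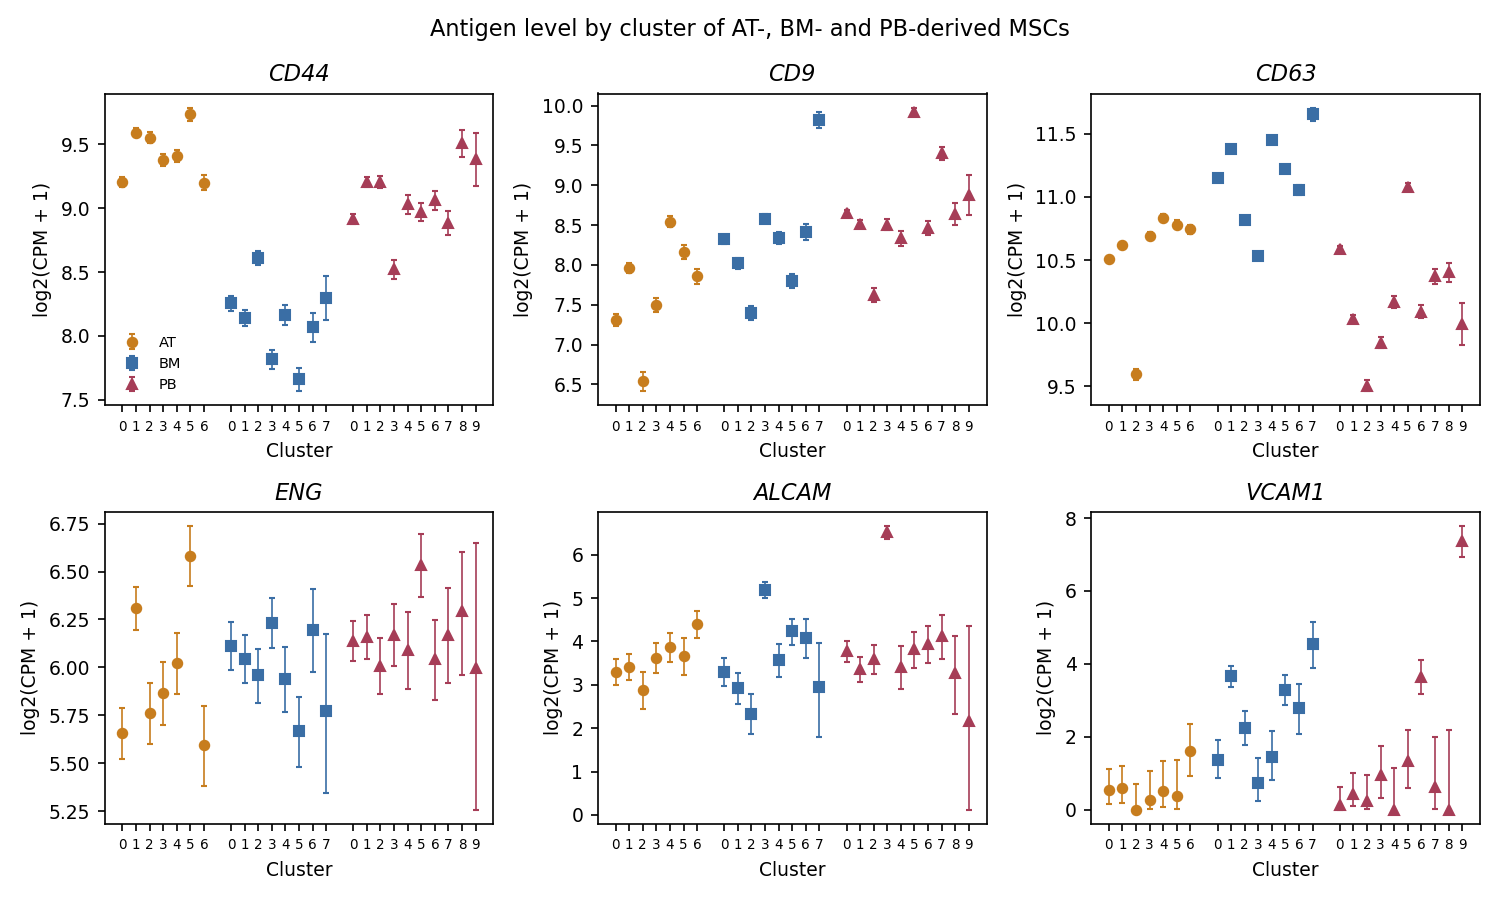
Level of 6 antigen genes, as log2(CPM + 1), in each cluster of AT-, BM- and PB-derived MSCs; numbers on the x axis name clusters within a source and do not match across sources, and bars are exact 95% Poisson intervals (counting error). *VCAM1* stood highest in PB cluster 9 (40 cells), *ALCAM* in PB cluster 3, and *CD9* in BM cluster 7 and PB cluster 5.

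*ALCAM* (CD166), which binds CD6 on T cells and other ALCAM molecules, had its highest level in PB, where 1 cluster of cells held 47.3% of the UMIs. AT had 435 UMIs (10.9 CPM, 95% interval 9.88 to 11.95), BM had 539 (13.4 CPM, 12.3 to 14.6) and PB had 820 (19.7 CPM, 18.4 to 21.1). The level in PB was 1.81 times that in AT (1.61 to 2.04) and 1.47 times that in BM (1.32 to 1.64). BM exceeded AT by 1.23 times (1.08 to 1.40), but this order turned in G1 cells and in thinned cells, in which the log2 difference for AT minus BM was 0.16 and 0.21. Under TMM scaling that difference was -0.02 instead of -0.28. At 2500 UMIs, an *ALCAM* UMI was found in 2.91% of cells from AT, 2.46% from BM and 4.04% from PB.

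In the sums over each source *ALCAM* was higher in cells called S or G2/M than in cells called G1, in PB through a single cluster. Phases were called from the expression of cell cycle genes, to which no antigen belongs. In PB the level was 12.7 CPM (11.3 to 14.1) in cells called G1, 27.6 (24.3 to 31.2) in S and 37.7 (33.0 to 42.7) in G2/M. In BM the values were 7.65 (6.61 to 8.79), 21.6 (18.5 to 25.2) and 25.5 CPM (21.9 to 29.6), and in AT they were 8.69 (7.55 to 9.95), 13.98 (11.6 to 16.7) and 14.5 CPM (11.8 to 17.5). The intervals of G1 and of S cells did not overlap in any source. Without PB cluster 3, the PB values were 11.6 CPM in G1 (10.3 to 13.01), 11.6 in S (9.23 to 14.4) and 11.2 in G2/M (8.26 to 14.9), so that no difference between phases was left beyond counting error. Without the cluster of highest *ALCAM* in BM, G1, S and G2/M cells had 7.26 (6.25 to 8.40), 15.6 (12.3 to 19.4) and 14.9 CPM (11.4 to 19.3). In AT they had 8.69 (7.55 to 9.95), 11.9 (9.42 to 14.9) and 12.7 CPM (9.92 to 16.1) without it, with intervals that overlapped. Leaving out these clusters was chosen after the values were seen. Cells with an *ALCAM* UMI were also deeper, with medians of 8134.5, 8803.5 and 9262.5 UMIs against 7229, 6761.5 and 7603.5 in cells without, whose part in this was not tested.

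Clusters made up mostly of cells called S or G2/M differed in *ALCAM*. PB cluster 3 of 410 cells, led by the replication genes *UHRF1* and *CLSPN* and with 94.4% of cells called S or G2/M, held 388 of the 820 *ALCAM* UMIs (90.3 CPM, 81.6 to 99.8), and its 23 cells called G1 had 115 CPM (77.3 to 164). Without the cluster of highest *ALCAM* in each source, AT had 9.89, BM 9.39 and PB 11.6 CPM. PB cluster 7, led by the mitotic genes *CDCA3* and *CCNB2* and with 80.5% in S or G2/M, had 16.4 CPM. BM cluster 3, with 90.2% in S or G2/M, had 35.5 CPM (31.0 to 40.6), and BM cluster 5, with 99.6%, had 17.8 CPM (14.2 to 22.1). By the same rule as for *VCAM1*, the genes with the largest difference in PB cells with an *ALCAM* UMI included *ACTG2* (186 against 31.3 CPM) and *ANLN* (99.4 against 18.8). In BM they were the mitotic genes *CCNB1* (138 against 47.3 CPM), *KIF23* (61.5 against 22.1) and *CEP55* (45.2 against 16.6).

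**Figure D3:**
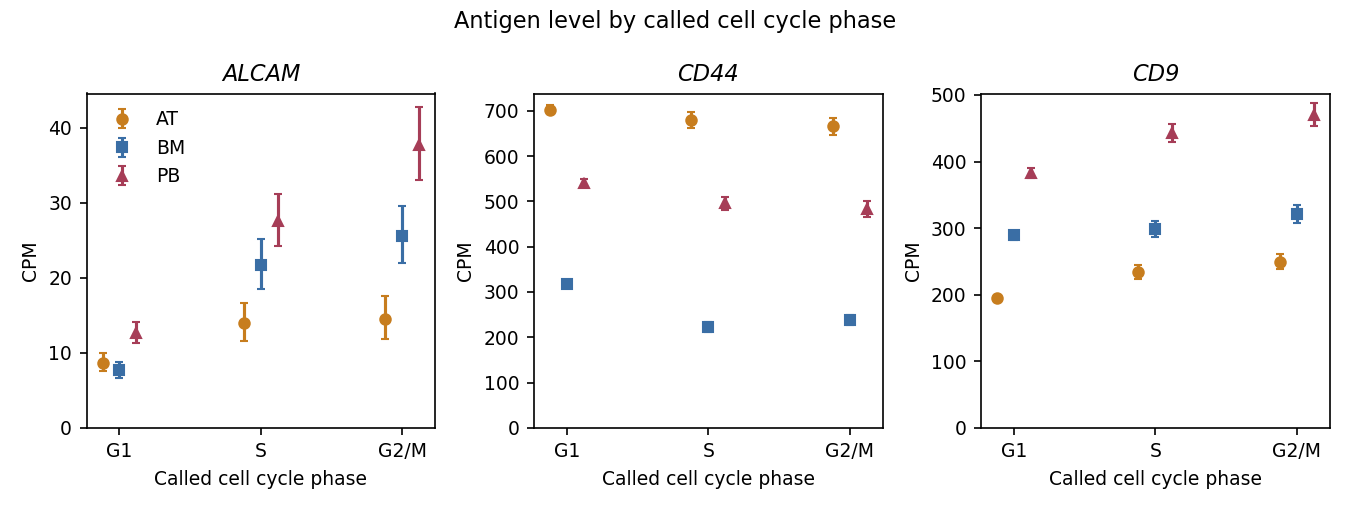
Level in CPM of *ALCAM*, *CD44* and *CD9* in cells called G1, S or G2/M of each source, with exact 95% Poisson intervals (counting error). *ALCAM* was lowest in G1 in all 3 sources, in PB not without cluster 3, and the order AT above PB above BM of *CD44* and PB above BM above AT of *CD9* held in each phase.

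Of 21 further adhesion molecules of the immunoglobulin superfamily, 14 had a mean of at least 1 CPM. Of these, 1 was at least 2-fold higher in AT than in BM and 3 were higher in BM. Of the 11479 genes with such a mean, 2.57% and 8.45% were. Between AT and PB 3 were higher in AT and 2 in PB (beside 4.42% and 5.98% of those genes). Between BM and PB 5 were higher in BM and 1 in PB (beside 5.94% and 2.33%). *JAM2*, a junctional adhesion molecule, had the widest range, with 1.60, 456 and 166 CPM in AT, BM and PB. *BSG* (CD147) had 644, 436 and 416 CPM and *NPTN* 83.5, 152 and 89.98 CPM. *JAM2* and *VCAM1* shared the order BM, PB, AT, whereas *BSG* was highest in AT, as was *CD44*.

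The tetraspanin *CD9* was lowest in AT and highest in PB. It had 213 CPM (95% interval 208 to 217) in AT, 297 (291 to 302) in BM and 409 (403 to 415) in PB. The level in PB was 1.92 times that in AT (1.87 to 1.97) and 1.38 times that in BM (1.35 to 1.41). At 2500 UMIs, 38.2%, 46.7% and 57.1% of cells had a *CD9* UMI. *CD63*, a tetraspanin of late endosomes and vesicles, had another order, with 1499 CPM (1487 to 1511) in AT, 2239 (2224 to 2253) in BM and 1228 (1217 to 1238) in PB. BM exceeded PB by 1.82 times (1.80 to 1.84) and AT by 1.49 times (1.48 to 1.51). These folds depend on the scaling beyond their counting intervals. Under TMM scaling the log2 difference of *CD63* was -0.30 instead of -0.58 for AT minus BM. For BM minus PB it was 0.63 instead of 0.87. The log2 difference of *CD9* was then -0.20 instead of -0.48 for AT minus BM, and -0.70 instead of -0.46 for BM minus PB. A *CD63* UMI was found in 91.5%, 96.0% and 88.7% of cells at 2500 UMIs, and the median cell held 10, 15 and 8 at its own depth. PB thus had the highest level of *CD9* and the lowest of *CD63*.

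Within sources, *CD9* and *CD63* were highest in the same clusters of BM and PB. BM cluster 7 (100 cells) had 901 CPM of *CD9* (840 to 966) and 3226 CPM of *CD63* (3109 to 3346). PB cluster 5 (378 cells), which like BM cluster 7 had *PIGK*, *LAMP2* and *PLTP* among its leading genes, had 971 CPM of *CD9* (937 to 1005) and 2161 of *CD63* (2111 to 2212). LAMP2 is a protein of lysosomal membranes. This PB cluster held 18.7% of the *CD9* UMIs in 7.11% of the cells. In AT the highest cluster was cluster 4 for both genes, led by the mitotic genes *CDC20* and *CDKN3*, with 372 CPM of *CD9* and 1821 CPM of *CD63*. At a clustering resolution of 0.4 the highest AT cluster was 1 of 1949 cells for both genes (310 and 1836 CPM), and the ratio of highest to lowest AT cluster was 2.35 for *CD9* instead of 4.05. The highest clusters of BM and PB then had 102 and 378 cells for both genes. Without BM cluster 7 and PB cluster 5 the log2 difference of *CD9* was -0.35 for BM minus PB instead of -0.46, and -0.76 for AT minus PB instead of -0.94.

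The lowest levels of *CD9* and *CD63* in AT and PB were also in a common cluster, unlike those in BM. There *CD9* was lowest in cluster 2 (168 CPM) and *CD63* in cluster 3 (1483 CPM). AT cluster 2 (818 cells) had 92.0 CPM of *CD9* (84.4 to 100.1) and 771 of *CD63* (748 to 793), and PB cluster 2 (892 cells) had 196 CPM (185 to 208) and 725 CPM (703 to 746). Among their leading genes were rows of non-coding RNAs of the Rfam collection. These clusters had the fewest genes per cell at 2500 UMIs in their sources, with medians of 924 and 964.5 against 1013 and 1029 over all cells. They also had the highest share of UMIs on ribosomal protein genes, with 26.4% and 23.5% against 22.6% and 20.1%. The part of these properties in the low levels was not tested.

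Of 21 further tetraspanins and partners with a row, 16 had a mean of at least 1 CPM. *TSPAN12* (7.38, 22.6 and 12.5 CPM in AT, BM and PB) was the only one at least 2-fold apart between AT and BM. Of the 11479 genes with such a mean, 2.57% were higher in AT and 8.45% in BM. Between AT and PB 1 was higher in AT and 1 in PB (beside 4.42% and 5.98% of those genes). Between BM and PB 0 were 2-fold apart (beside 5.94% higher in BM and 2.33% higher in PB). *CD151*, which binds laminin-binding integrins, had 380, 300 and 175 CPM in AT, BM and PB, the reverse order of *CD9*. *TSPAN4* had 151, 214 and 151 CPM and *TSPAN17* 162, 168 and 167 CPM.

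*ENG* was the most even across sources of the 6 antigens with a mean of at least 1 CPM. It had 62.2 CPM (95% interval 59.7 to 64.6) in AT, 64.3 (61.8 to 66.8) in BM and 70.4 (67.9 to 73.0) in PB. The ratio of AT to BM was 0.967 (0.915 to 1.02), within counting error, and PB exceeded AT by 1.13 times (1.07 to 1.20) and BM by 1.096 times (1.04 to 1.16). The range of 0.18 on the log2 scale was smaller than that of all but 10.3% of the genes, whose median range was 0.49. The range depends on the scaling. Under TMM scaling the log2 difference was 0.23 instead of -0.05 for AT minus BM, and -0.36 instead of -0.13 for BM minus PB. At 2500 UMIs 14.6%, 15.5% and 16.1% of cells had an *ENG* UMI, and at their own depth 34.4%, 36.0% and 40.7% had. Among clusters of at least 100 cells, the highest was AT cluster 5 (471 cells) with 94.9 CPM (84.9 to 106). There *ENG* was itself among the leading genes beside *ID1*, *ID3* and *ID2*, which are known targets of BMP signalling. PB cluster 5 (378 cells), with *PIGK*, *LAMP2* and *PLTP* and no ID gene among its leading genes, was close to it. It had 91.7 CPM (81.6 to 103). The highest BM cluster was cluster 3 with 74.2 CPM (67.5 to 81.3).

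Of 12 receptors of the TGF-beta and BMP family, 9 had a mean of at least 1 CPM. Of the 12, 1 was at least 2-fold higher in AT than in BM and 2 were higher in BM. Of the 11479 genes with a mean of at least 1 CPM, 2.57% and 8.45% were. Between AT and PB 2 were higher in AT and 1 in PB (beside 4.42% and 5.98% of those genes). Between BM and PB 2 were higher in BM and 0 in PB (beside 5.94% and 2.33%). *TGFBR3* (betaglycan), which is related to ENG, had the widest range, with 20.1, 7.18 and 2.98 CPM in AT, BM and PB. *TGFBR2* had 34.8, 27.7 and 22.01 CPM, *TGFBR1* 9.55, 20.9 and 17.8 CPM, and *ACVR1* 21.2, 38.0 and 45.9 CPM. The level of *ENG* thus stayed between 62.2 and 70.4 CPM where that of betaglycan spanned 2.41 on the log2 scale.

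*NT5E* was at the edge of detection. It had 9 UMIs in 9 AT cells, 30 UMIs in 30 BM cells and 43 UMIs in 42 PB cells. The level in AT was thus 0.225 CPM (95% interval 0.103 to 0.427). BM had 0.746 CPM (0.503 to 1.06) and PB had 1.03 CPM (0.748 to 1.39). The level in PB was 4.59 times that in AT (2.21 to 10.7) and that in BM 3.31 times that in AT (1.53 to 7.93), whereas the ratio of BM to PB was 0.722 (0.437 to 1.18), within counting error. On the log2(CPM + 1) scale no pair of sources was 2-fold apart for *NT5E*. Of the cells, 0.167%, 0.538% and 0.790% had a UMI, and 20 PB cells had it at 2500 UMIs.

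Other genes of extracellular adenosine were better detected, 8 of 14 with a row having a mean of at least 1 CPM. *ALPL* (tissue-nonspecific alkaline phosphatase), which can also release adenosine from AMP, had 2.88 CPM in AT, 96.0 in BM and 326 in PB, and was the gene of the list with the widest range. Both *ALPL* and *NT5E* were lowest in AT. The adenosine receptor *ADORA2B* had 33.0, 41.4 and 41.0 CPM, and the kinase *ADK* had 78.1, 97.1 and 88.4 CPM. Of the 14 genes with a row, 1 was at least 2-fold higher in AT than in BM and 2 were higher in BM. Of the 11479 genes with a mean of at least 1 CPM, 2.57% and 8.45% were. Between AT and PB 2 were higher in AT and 2 in PB (beside 4.42% and 5.98% of those genes). Between BM and PB 1 was higher in BM and 2 in PB (beside 5.94% and 2.33%).

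*LEPR* was not detected. With 0 UMIs in 5403, 5580 and 5318 cells, levels of up to 0.0750, 0.0746 and 0.0721 CPM (the level of 3 UMIs in the sum of a source) and shares of up to 0.0555%, 0.0538% and 0.0564% of cells with a UMI remained possible at this depth. *LEPROT*, whose gene overlaps *LEPR* in mammals and which lies on the same strand of chromosome 5 in the matrices, had 153, 141 and 94.2 CPM. Whether the assignment of reads to genes bears on the count of *LEPR* was not tested. Among 14 genes of leptin and gp130-type signalling with a row, 12 had a mean of at least 1 CPM. Of the 14, 5 were at least 2-fold higher in BM than in AT and 0 were higher in AT. Of the 11479 genes with a mean of at least 1 CPM, 8.45% and 2.57% were. Between AT and PB 2 were higher in AT and 3 in PB (beside 4.42% and 5.98% of those genes). Between BM and PB 2 were higher in BM and 0 in PB (beside 5.94% and 2.33%). *CXCL12*, a chemokine that LEPR-positive stromal cells of bone marrow are known for, had 2.55, 25.4 and 0.553 CPM in AT, BM and PB and the widest range of the list. The gp130 subunit *IL6ST* had 157, 155 and 85.7 CPM and *LEPROTL1* 111, 155 and 133 CPM. BM-derived MSCs thus had the highest *CXCL12* with no *LEPR* UMI.

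*NGFR* had 4 UMIs in BM and 4 in PB, each in a cell of its own, and 0 in AT. The levels of 0.0994 CPM (95% interval 0.0271 to 0.255) in BM and 0.0961 (0.0262 to 0.246) in PB included the limit of 0.0750 CPM that 0 UMIs allow in AT, so that no difference was detectable at this depth. Of 16 neurotrophins, receptors and adaptors with a row, 13 had a UMI and 6 had a mean of at least 1 CPM. Of the 16, 0 were at least 2-fold higher in AT than in BM and 1 was higher in BM. Of the 11479 genes with a mean of at least 1 CPM, 2.57% and 8.45% were. Between AT and PB 1 was higher in AT and 1 in PB (beside 4.42% and 5.98% of those genes). Between BM and PB 1 was higher in BM and 1 in PB (beside 5.94% and 2.33%). *BEX3*, which binds the intracellular part of NGFR, had 294, 317 and 267 CPM, and *MAGED1*, which also binds it, 66.2, 77.01 and 84.1 CPM. *BDNF* had 28.1, 36.4 and 12.9 CPM, and *NTF4* had the widest range with 0.450, 3.11 and 1.51 CPM. The adaptors were thus well detected in all sources, whereas the receptor was not.

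**Figure D4:**
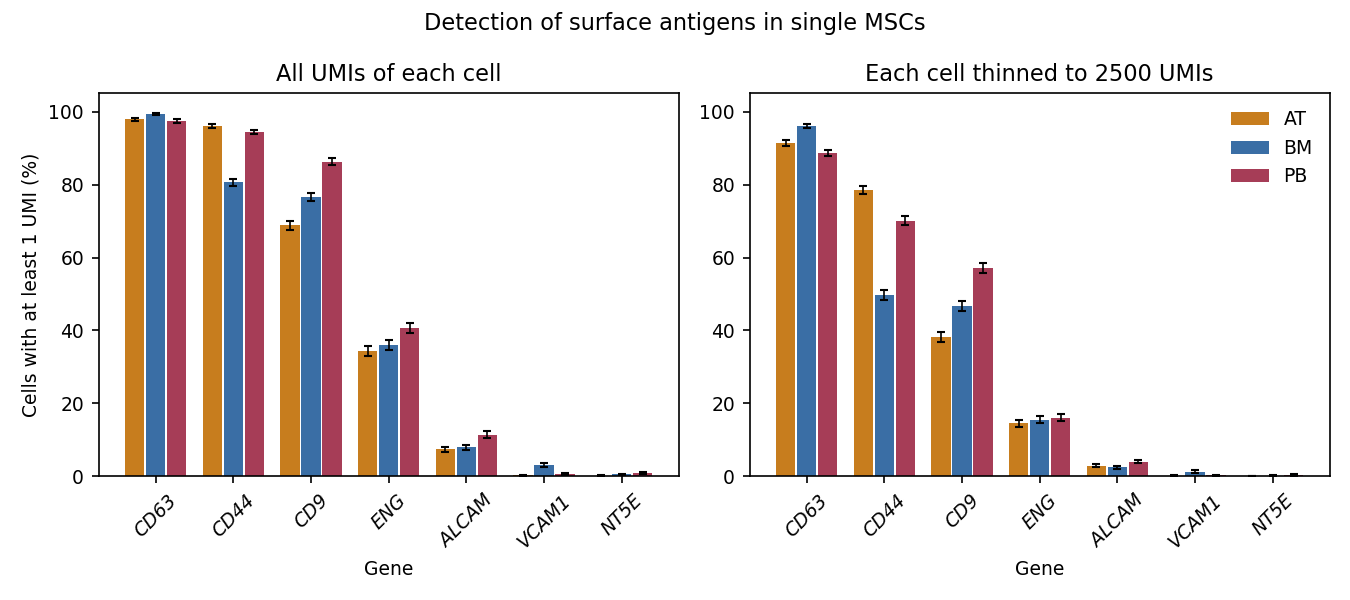
Share of cells with at least 1 UMI of 7 antigen genes in each source, at the own depth of the cells (left) and with each cell thinned to 2500 UMIs (right); bars start at 0 and error bars are exact 95% Clopper-Pearson intervals (counting error). At 2500 UMIs *CD44* was found in 78.6% of AT- and 49.8% of BM-derived MSCs and *CD9* in 38.2% and 57.1% of AT- and PB-derived MSCs.

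MSCs are recognised by antigens present together, so joint detection of pairs was examined in cells thinned to 2500 UMIs. The 9 genes with a row formed 36 pairs, of which 10 in AT, 13 in BM and 13 in PB had at least 5 cells expected in each field of the table of detection. The odds ratio compares the odds of detecting the second gene in cells with and without the first, and is 1 where detection is independent. *CD9* and *CD63* were the only pair with an odds ratio of at least 1.5 in all 3 sources, with 1.82 in AT, 1.73 in BM and 1.67 in PB. *ALCAM* and *CD63* reached 1.61 in BM. Thus 1 of 10, 2 of 13 and 1 of 13 pairs passed 1.5, beside 7.20%, 7.09% and 7.10% of all gene pairs with the same minimum in AT, BM and PB. So few pairs do not set the antigens apart from gene pairs at large. The gene pairs at large were not matched to the antigen pairs in numbers of cells. Their share therefore does not weigh a single pair such as *CD9* and *CD63*. Of all gene pairs, 7.16%, 7.20% and 7.27% lay at or below 1 over 1.5, and 0 antigen pairs did in any source. The median odds ratio of the pairs of antigens was 1.17 in AT, 1.06 in BM and 0.921 in PB.

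In counts of cells the excess of *CD9* and *CD63* over independence was small. Detection of *CD63* in most cells limited this excess. The joint count could not exceed the 2062, 2604 and 3039 cells with a *CD9* UMI in AT, BM and PB. Both genes were found in 1942 AT cells where independence gives 1887, in 2529 BM cells where it gives 2501, and in 2764 PB cells where it gives 2696. *CD63* was detected in 94.2% of AT cells with a *CD9* UMI and in 89.9% of those without, in 97.1% and 95.1% in BM, and in 91.0% and 85.7% in PB. Pearson's r of the 2 counts over cells, a description only, was 0.13, 0.07 and 0.19. A second random thinning gave odds ratios of 1.55, 1.89 and 1.93. In cells thinned to 1000 UMIs they were 1.35, 1.26 and 1.39.

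The odds ratio was lower within clusters. There the Mantel-Haenszel odds ratio of *CD9* and *CD63* was 1.26 in AT, 1.60 in BM and 1.30 in PB, so that no pair of antigens reached 1.5 in AT and PB. Without AT cluster 2, where both genes were lowest, the odds ratio in AT was 1.31. Without PB cluster 2 that in PB was 1.67, and without PB cluster 5 it was 1.53. The clusters were built from the same counts, and these were left out after the data were seen. Where the association arises was not tested. Within called phases the values were 1.81, 1.75 and 1.68, close to those over all cells. At their own depth the cells gave 6.40, 8.07 and 6.93.

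The pairs of *ALCAM* were described in each source. Its odds ratio with *CD63* was 1.19 in AT, 1.61 in BM and 0.736 in PB, and that with *CD9* was 1.32, 1.48 and 0.840. With *CD44* it was 1.43 in AT, 0.995 in BM and 0.802 in PB. All of these values in PB lay below 1, and within clusters they were 0.880 for *CD63*, 0.782 for *CD9* and 1.02 for *CD44*. The value above 1.5 in BM rested on 3 cells with *ALCAM* and without *CD63*, and at 1000 UMIs it was 0.618 there, on the other side of 1. The difference between sources was not tested.

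*CD44* and *ENG*, both part of the usual panel, were found together in 11.8% of cells from AT, 7.47% from BM and 11.5% from PB at 2500 UMIs, with odds ratios of 1.22, 0.929 and 1.09. *CD44* and *CD63* had odds ratios of 0.875, 0.9997 and 0.921, and *ENG* and *CD9* of 1.16, 1.08 and 1.24. *CD44* and *VCAM1* in BM had the lowest value at 2500 UMIs, 0.704 from 30 cells that had both where 36.3 were expected, but at 1000 UMIs it was 1.52, from 8 cells where 6.03 were expected. *NT5E* shared a thinned cell with *CD44* in 2, 4 and 14 cells, close to the 1.57, 4.48 and 14.02 that independence gives.

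**Figure D5:**
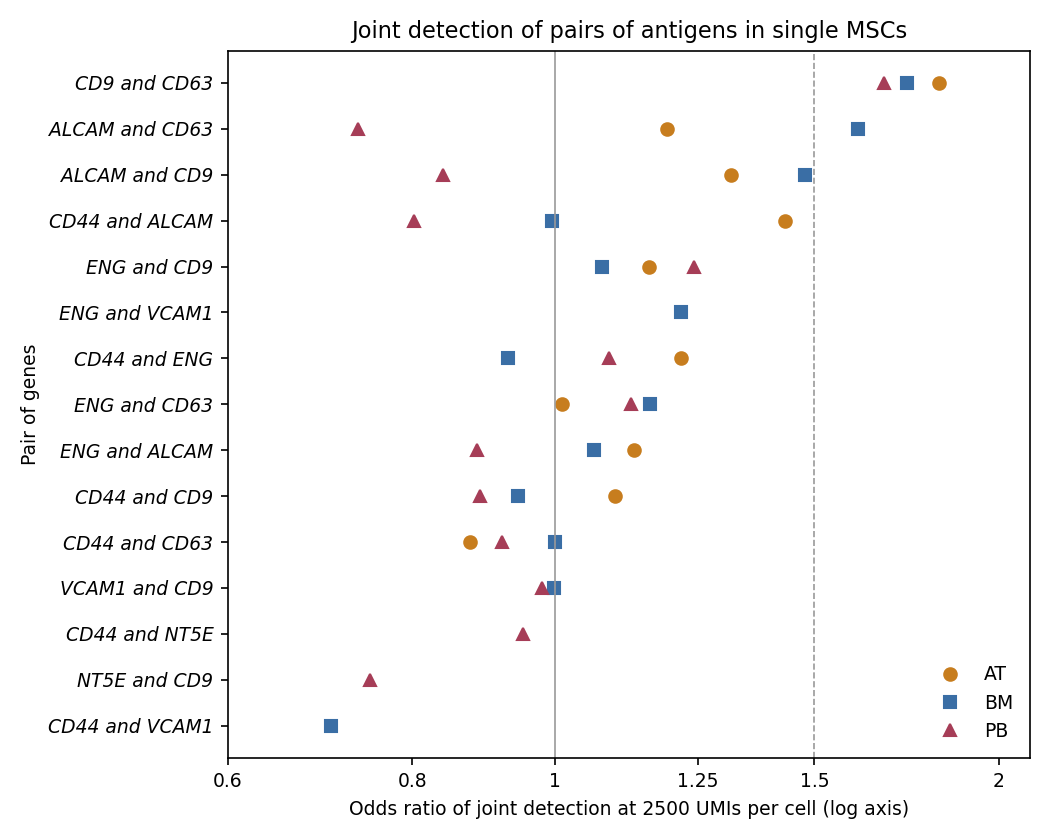
Odds ratio of joint detection at 2500 UMIs per cell, on a log axis, for the 15 pairs of antigens with at least 5 cells expected in each field of the table in at least 1 source; the solid line marks independence and the dashed line 1.5. *CD9* and *CD63* lay to the right of the dashed line in all 3 sources, and the pairs of *ALCAM* with *CD9*, *CD63* and *CD44* lay below 1 in PB.

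The 4 most often detected antigens, *CD44*, *CD63*, *CD9* and *ENG*, were all found in 4.39% of cells from AT (95% interval 3.86 to 4.97), 3.48% from BM (3.01 to 3.99) and 6.22% from PB (5.59 to 6.91) at 2500 UMIs. Independent detection, computed from the shares of each antigen in the same cells, would give 3.9965%, 3.46% and 5.72%. The intervals cover counting error of a share and do not measure departure from independence. A value within its interval therefore does not show that detection was independent. As a description only, 3 of the 15 shares for 0 to 4 antigens in the 3 sources had the value under independence outside their interval. These were 1 antigen in AT (15.9%, 14.9 to 16.9, against 14.6%), 2 antigens in AT (46.5%, 45.2 to 47.8, against 49.02%) and 0 antigens in BM (1.20%, 0.932 to 1.52, against 0.897%). None of the 4 was found in 1.11%, 1.20% and 1.37% of cells. The commonest number was 2 of the 4, with 46.5% in AT, 46.2% in BM and 40.3% in PB. More antigens per cell were thus found in PB, in which 37.2% of cells had 3 against 32.1% in AT and 26.3% in BM.

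The likeness of patterns was described over the 24 clusters of at least 100 cells, with levels centred within each source. It compared 3763 genes that had at least 20 UMIs in every such cluster. The pattern of *CD9* was most like those of *ETFA* (Pearson's r 0.96), *EQMCE1* (0.95) and *DDRGK1* (0.95), and that of *CD63* most like those of *DCTN3* (0.94), *VKORC1* (0.94) and *ECHS1* (0.90). *CD44* was most like *SPATA7* (0.89), *PFDN5* (0.88) and *DHDH* (0.88). For *ENG* the highest values were 0.66 for *CMBL*, *PMM2* and *SERTAD1*. Between antigens r was 0.74 for *CD9* and *CD63*, 0.39 for *CD9* and *ENG*, 0.31 for *CD44* and *ENG*, and -0.07 for *CD44* and *CD9*. *CD9* and *CD63* thus varied together across clusters and *CD44* varied apart from them. The clusters of a source share a library and were built from the same cells, so these values carry no test.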

How the data were processed

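Donor-matched AT-, BM- and PB-derived MSCs of 1 mare were profiled with 1 library of 3' end single-cell RNA sequencing per source. The authors used CellRanger to map reads to EquCab3.0 and ESAT to quantify them. The deposited values are whole-number UMI counts of a gene in a barcode, without normalization. ESAT also counts reads just downstream of annotated genes and left out exons that overlap on opposite strands, so annotation affects which reads a gene receives.

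From these counts, kept cells were summed per source and expressed as CPM, with 1 CPM added on the log2 scale. Totals of 39980656, 40239295 and 41622445 UMIs make 3 UMIs equal to 0.0750, 0.0746 and 0.0721 CPM. Cells were thinned to 2500 UMIs without replacement. Odds ratios had 0.5 added to each field. No test was run, because each source had 1 library. TMM factors came from edgeR 4.0.16, which served no other purpose. Clustering and phase calls used R 4.3.3, sctransform 0.4.2 and Seurat 5.3.0 (3000 variable genes, 14, 23 and 20 components for AT, BM and PB, resolution 0.6). Intervals were computed with SciPy 1.17.1, those of ratios by the exact conditional method. The authors removed putative multiplets in their own analysis, but the matrices carry no such mark; here none were removed, and an alternative dropped cells in the top 5% of Scrublet scores, computed in Scanpy 1.11.5. Scripts were tested on simulated data.

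The antigens, gene lists and marker lists were chosen with earlier results of these data known. All antigens are named; of each list, the 3 genes with the highest mean CPM and the gene with the largest range are named, and of genes with a like pattern the 3 with the highest r. *ICAM1* and genes of cells with a *VCAM1* or *ALCAM* UMI were chosen after their values were seen. The alternatives tried concerned UMI and mitochondrial limits, shared barcodes, doublets, phase, scaling, pseudocount, thinning, clustering resolution and thresholds. *CD81* is not analysed here. A further gene of the cells with an *ALCAM* UMI is not reported here.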

Additional observations from a re-analysis of the deposited data

Results flagged for a closer look

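The AT matrix held 5711 barcodes under the lower UMI limit that the PB matrix also held, with a median of 829 UMIs and 4918153 UMIs in all. These barcodes are not among the retained cells, and enter only the alternative with all barcodes of at least 500 UMIs where they reach that number. In them 6 of the antigens had a signal above the 0.610 CPM that 0 UMIs allow. *CD9* had 391 CPM there (95% interval 374 to 409), against 213 CPM in kept AT cells and 409 CPM in kept PB cells. *ALCAM* had 20.9 CPM (17.1 to 25.4) against 10.9 and 19.7, and *VCAM1* 2.24 CPM (1.12 to 4.002) against 0.5002 and 2.28. *CD44* had 548 CPM (528 to 569) against 691 and 522, *CD63* 1309 CPM (1277 to 1341) against 1499 and 1228, and *ENG* 77.1 CPM (69.5 to 85.2) against 62.2 and 70.4.

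The antigen levels in these AT barcodes were closer to those of kept PB cells than to those of kept AT cells for *CD44*, *CD9*, *CD63*, *ALCAM*, *VCAM1* and *ENG*. The 444 AT barcodes under the limit that the PB matrix did not hold had 151 CPM of *CD9* (121 to 185) and 657 CPM of *CD44* (594 to 724). They had 1262 CPM of *CD63* (1175 to 1355) and 83.5 CPM of *ENG* (62.2 to 110), which were also closer to kept PB than to kept AT cells, so these 2 antigens did not set the shared barcodes apart. *ALCAM* rested on 6 UMIs there (9.82 CPM, 3.61 to 21.4) and *VCAM1* on 1. *JAM2*, with 1.60 CPM in kept AT and 166 in kept PB cells, had 165 CPM in the shared barcodes and 8.19 CPM in the others. How these barcodes came into both matrices was not tested.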

How the results depend on the processing

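No paired analysis was possible because each source had 1 library. Of 245 log2 differences between sources recomputed, 4 changed sign, none of them at least 2-fold. Between AT and BM the count of antigens at least 2-fold apart was 2, and 1 (*CD44*) with a pseudocount of 25 CPM. Between AT and PB it was 1, and 0 with all barcodes of at least 500 UMIs, with means of single-cell CPM, with a pseudocount of 25 CPM or without the PB cluster of 40 cells; at 1.5-fold it was 4. Thinned to 2500 UMIs, the 1 antigen was *NT5E* instead of *VCAM1*. *NT5E*, with a mean under 1 CPM, was also among the 4 at 1.5-fold. No share of all genes was computed at 1.5-fold. Between BM and PB the count was 0. It was 1 under thinning, means of single-cell CPM or without the PB cluster of 40 cells (*VCAM1*), and 1 with TMM factors (*CD44*). At 1.5-fold it was 3. Pairs with an odds ratio of at least 1.5 numbered 6, 5 and 7 in unthinned AT, BM and PB cells, in which depth varies. In AT and PB they numbered 0 at 1000 UMIs and 0 within clusters, and in BM 2 other pairs (*CD44* with *VCAM1*, *ALCAM* with *CD9*) passed at 1000 UMIs. In AT they numbered 3 at a lower threshold of the odds ratio, 2 without barcodes kept in more than 1 source and 0 without AT cluster 2. The causes were not tested. Leaving out the PB cluster of 40 cells, the clusters led by *LAMP2*, *PIGK* and *PLTP*, the clusters with Rfam rows or barcodes kept in more than 1 source was chosen after seeing the data. Barcodes found in any other matrix could not be left out for PB, as that left 0 of 5318 cells. TMM factors moved the median log2 difference of the 11479 genes with a mean of at least 1 CPM by 0.25 for AT minus BM, 0.04 for AT minus PB and -0.21 for BM minus PB. Depth bounds what could be seen of *NT5E*, *NGFR* and *LEPR*, and the part of read assignment in the count of *LEPR* was not tested. A single library per source leaves biological error unknown.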
